A study of Mus musculus with 384 samples.

Results

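Hybrid cells of the mouse mammary gland were examined one by one after ablation of luminal cells. They are the wells that the labels place in a hybrid gate of doxycycline-treated glands, and they were chosen by that label and by library quality, not by any gene. Of 92 such wells, 85 passed a minimum of 100000 gene reads and 1000 genes and a maximum of 20% of reads from the mitochondrial genome. They stand among 319 kept single cells of a series of 384 samples, which set out to profile the epithelium after ablation and to characterise a population intermediate between basal and luminal cells.

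All animals, the wild type (WT) group included, are labelled K8rtta/TetO-DTA/K5CreER/Rosa-Tomato on a mixed background. In such animals, as the labels name them, a keratin 8 driven rtTA turns on a diphtheria toxin fragment in luminal cells when doxycycline is given, and a keratin 5 driven CreER marks basal cells and their progeny with Tomato. Ablated glands received 0.2 mg doxycycline into the duct and were taken 1 week later, and no injection is recorded for WT glands. CreER acts when tamoxifen is given, and the labels do not describe that step. Cells were sorted as Tomato positive, with CD29 and EpCAM, and without CD45, CD31 and CD140a, into 1 well each for Smart-seq2, a full-length cDNA method. The other gates kept 71 ablated basal, 76 ablated luminal, 44 WT basal and 43 WT luminal cells. The labels name no animal and do not say how the hybrid gate was drawn, so the hybrid cells count as 1 sample and no test was made. The gates fill successive rows of 1 plate, the hybrid wells rows M to P, so gate and plate position cannot be told apart.

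The mammary epithelium has an outer basal layer of myoepithelial cells, which carry keratins 5 and 14, contract through smooth muscle actin and lay down basement membrane. The inner luminal layer carries keratins 8, 18 and 19 and is sealed by claudins. It holds hormone-sensing cells with prolactin, estrogen and progesterone receptors, and alveolar or secretory cells that make milk proteins. In the resting adult gland each layer is known to maintain itself, and basal cells can give rise to luminal cells after transplantation or injury.

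Kept hybrid wells held 118310 to 2414194 reads in genes (median 1078728) and 3886 to 9347 genes (median 6906), with 1.24% to 11.4% mitochondrial reads. Low depth removed 5 wells, with 6174 to 55819 reads, and 2 more were removed for mitochondrial shares of 25.5% and 33.6%. The shallowest kept well thus lies just inside the read limit, and the highest kept mitochondrial share well inside its limit. After thinning every cell to 100000 reads, hybrid cells held a median of 4604 genes (2478 to 6787), against medians of 4333.5 (ablated luminal), 2689 (ablated basal), 2916 (WT luminal) and 2194.5 (WT basal). The 5 negative control wells held 7930 to 13572 reads, on average 1.05% of the median hybrid well. In those wells Krt18 had a mean of 90.4 reads, Krt19 38, Acta2 27.2 and Krt14 18.8 reads, so low values of these abundant genes can lie within background. For that reason a threshold of 20 reads of 100000, equal to 200 CPM, is given beside the set one of 5 reads. CPM is a gene's reads scaled to a total of 1000000 gene reads. Doublets were not called.

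Most hybrid cells, but not all, carried basal and luminal marker genes together, with wide differences in both from cell to cell. Both Acta2 and Krt19 were at 20 reads or more after thinning in 61 of 85 cells. All 5 marker genes were detected in the gate, with 1 of 85 cells under 50 CPM for Acta2 and 38 for Krt15. Acta2, the smooth muscle actin of myoepithelial cells (chromosome 19, 34241090 to 34255590, minus strand, GRCm38), ranged from 39.9 to 29035 CPM with a median of 5612 CPM. Its quartiles were 2434 and 10426 CPM, and 80 of 85 cells had it at 20 reads or more after thinning. Its median was 12725 CPM in ablated basal and 15.8 CPM in ablated luminal cells, so most hybrid cells lay below the ablated basal median and far above the ablated luminal median. Krt14, the basal keratin (chromosome 11, 100203162 to 100207548, minus strand), ranged from 17.7 to 17519 CPM with a median of 2012 CPM. It stood at 4220 CPM in the median ablated basal cell and at 283 CPM in the median ablated luminal cell.

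The luminal markers had the opposite order between gates. Krt18, a luminal keratin that pairs with keratin 8 (chromosome 15, 102028180 to 102032027, plus strand), ranged from 39 to 12439 CPM with a median of 3652 CPM. Ablated luminal cells had a median of 5567 CPM and ablated basal cells 35.4 CPM. Krt19, a luminal keratin (chromosome 11, 100140810 to 100148665, minus strand), ranged from 8.98 to 13130 CPM with a median of 1309 CPM. Of 85 cells 15 were under 50 CPM of Krt19 against 2 for Krt18, so low cells were more frequent for Krt19. The other ablated gates had Krt19 medians of 3756 CPM (ablated luminal) and 7.03 CPM (ablated basal).

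Krt15, a keratin of progenitor and basal cells in several epithelia (chromosome 11, 100131758 to 100135928, minus strand), was uneven within the gate. It ranged from 0 to 8329 CPM with a median of 142 CPM, with 38 cells under 50 CPM and an upper quartile of 816 CPM. The median cell had 6.49 CPM in ablated basal and 5.42 CPM in ablated luminal cells, but a part of those cells also carried it. At 20 reads or more after thinning, Krt15 was found in 24 of 71 ablated basal cells, all without Krt19 at that threshold. In ablated luminal cells it was found in 12 of 76, all with Krt19. In hybrid cells it was found with Krt19 in 26 of 85 and without it in 12. In the many-cell hybrid library Krt15 stood at 43.2 CPM against 727 CPM (exact Poisson 95% interval 722 to 733, counting error only) in the sum of the single cells. Krt14 stood at 992 CPM there against 3714 CPM (3702 to 3726), whereas Acta2 (6752 against 8119 CPM), Krt18 (6784 against 4644 CPM) and Krt19 (1887 against 2670 CPM) lay nearer. The number of cells in that library is not given in the labels. Per kilobase of exon, the order of summed levels was Acta2 (3697), Krt18 (3232), Krt14 (2113), Krt19 (1439) and Krt15 (412 CPM per kb).

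**Figure D1:**
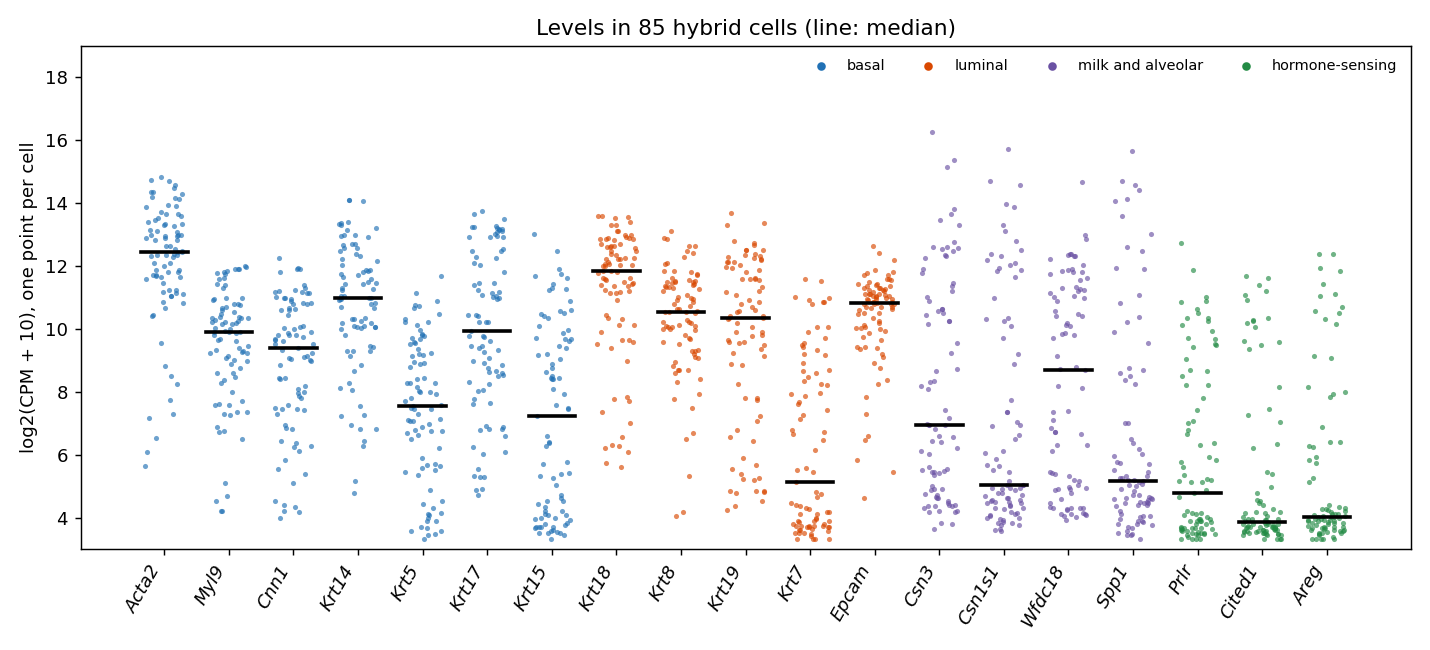
Level of 19 genes in each of 85 hybrid cells, as log2(CPM + 10) on the vertical axis, with 1 point per cell and a black line at the median. Acta2, Krt14 and Krt18 are high in most cells, whereas Krt15, Csn3, Csn1s1, Spp1, Prlr, Cited1 and Areg are high in a part of the cells and near 0 CPM in others.

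Basal and luminal genes were found in the same cells. Acta2 and Krt19 were both at 20 reads or more, after thinning, in 61 of 85 hybrid cells (71.8%, Clopper-Pearson 95% interval 61 to 81, for counting error over cells). The same pair was found in 12 of 76 ablated luminal and 1 of 71 ablated basal cells, and among WT cells in 1 of 43 luminal and 0 of 44 basal ones. At 5 reads the counts were 71 of 85 hybrid, 21 of 76 ablated luminal and 7 of 71 ablated basal cells, with 7 of 43 and 6 of 44 in the WT luminal and basal gates. Hybrid cells thus had the highest share of the gates at either threshold.

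Pairs with Krt14 were also frequent in other gates. Krt14 and Krt18 were both at 20 reads in 67 of 85 hybrid cells (78.8%, 68.6 to 86.9), but also in 40 of 76 ablated luminal and 20 of 71 ablated basal cells. Krt14 and Krt19 were both at 20 reads in 56 of 85 hybrid, 31 of 76 ablated luminal and 0 of 71 ablated basal cells. Krt5 and Krt8 were both found in 38 hybrid cells, and Krt15 and Krt19 in 26. Ablated luminal cells therefore often held Krt14 beside luminal keratins, and seldom Acta2.

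Cells with both Acta2 and Krt19 were deeper than the others. The 61 cells had a median of 1243443 reads and 4730 genes after thinning, and the 24 remaining hybrid cells 892195 reads and 4114 genes. When hybrid cells with more thinned genes than every ablated basal cell (over 4513) were set aside, a choice made after seeing the data, 24 of the 39 cells left still had both genes at 20 reads (61.5%). Whether wells with more than 1 cell take part in these counts was not tested.

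Each cell was placed by a basal score and a luminal score. Each score is the mean log2(CPM + 10) over its lists, with 36 genes for basal and 30 for luminal, and the luminal minus the basal score is the lineage position. It is a range, not a type. Hybrid positions ran from -4.12 to 2.16 with a median of -0.37 (order-statistic 95% interval over cells -0.69 to -0.12), with the lower quartile at -1.79 and the upper at 0.35. The SD over hybrid cells was 1.62, against 1.16 in ablated luminal, 0.69 in ablated basal, 0.92 in WT basal and 0.66 in WT luminal ones. Ablated basal cells lay from -4.30 to -1.13 and ablated luminal cells from -0.88 to 4.04.

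Hybrid cells overlapped both ablated gates on this axis. Of the 85 cells, 29 lay within the ablated basal range, 54 within the ablated luminal range and 2 in the gap between them. The ends of these ranges are set by single cells. The 10th percentile of ablated luminal cells was 0.29 and the 90th percentile of ablated basal cells -2.05. The hybrid median of -0.37 lay between these 2 values, and the hybrid upper quartile was 0.35. Most hybrid cells in the ablated luminal range thus lay in its lower part. Against WT cells the picture was less even, with 60 cells in the WT basal range, 4 in the WT luminal range and 20 between them. A basal score at or above the lowest ablated basal cell together with a luminal score at or above the lowest ablated luminal cell was found in 76 of 85 cells (89.4%, 80.8 to 95), and no cell was below on both. These limits, 5.56 and 4.81, are low and each is set by 1 cell. Luminal scores of ablated basal cells reached 5.23 and basal scores of ablated luminal cells 6.44. Some cells of those gates therefore also passed both limits. The many-cell hybrid library had a position of 0.04. Plate-row medians were -0.40 in M, -0.30 in N, -0.39 in O and -0.21 in P. Single markers differed more between rows, with Krt15 medians from 23.2 CPM in M to 208 CPM in N and Acta2 medians from 3549 CPM in N to 8907 CPM in M.

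**Figure D2:**
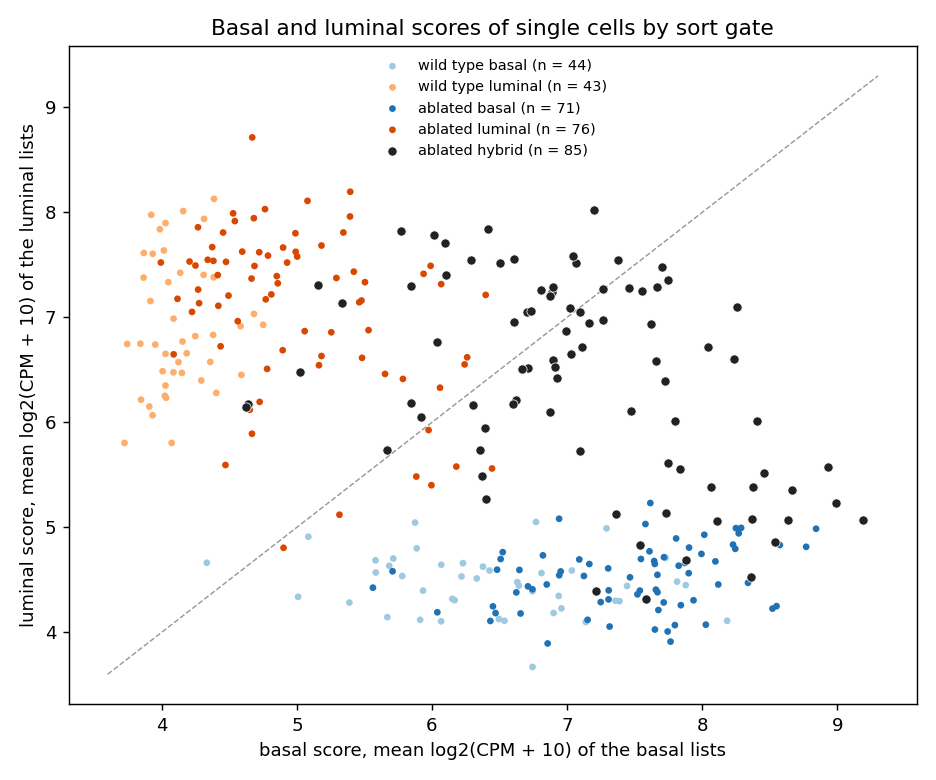
Basal score (horizontal) and luminal score (vertical), both as mean log2(CPM + 10), for each single cell, with 1 point per cell, colours for the 5 gates and a dashed line where the scores are equal. Hybrid cells, in black, have positions (luminal minus basal score) from -4.12 to 2.16, reach into the ablated basal and the ablated luminal cells, and fill the area between them.

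Over the 85 hybrid cells the scores had a Spearman correlation of -0.43, so cells higher in basal genes tended to be lower in luminal genes. The points share 1 gate and 1 plate, and the luminal score had a correlation of 0.64 with the number of genes in a cell, the basal score one of 0.13. Given the number of genes, the correlation of the scores was -0.67. Other scores were made from the 575 basal and 579 luminal genes that were 4-fold apart between WT gates. Their correlation, not adjusted for the number of genes, was -0.09, so the unadjusted value depends on the gene list. The value given the number of genes was not computed for those lists. Within the other gates the correlation of the main scores was -0.32 in ablated luminal, 0.27 in ablated basal, -0.23 in WT basal and 0.14 in WT luminal cells.

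Among the basal genes, the contractile set moved as a block. Of 13 measured contractile genes (14 listed), the 12 besides Acta2 included 10 with a correlation of 0.3 or more with Acta2, where 2.11% of all 9495 measured genes reached that value, and 0 at -0.3 or less, where 0.442% did. The closest were Myl9, a myosin regulatory light chain (0.80), Cnn1, calponin (0.77), Tagln, transgelin (0.72), and Tpm2, a tropomyosin (0.68). Tpm1 (0.57) and Mylk, the myosin light chain kinase (0.56), followed. The median correlation over the 78 pairs of contractile genes was 0.36, against 0.05 over all measured gene pairs (central 95% of pairs -0.18 to 0.27). At the low end stood S100a13 (-0.43), Aqp5 (-0.36) and Krt18 (-0.35).

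Promoter sequences of the closest pair are shown because serum response factor, a known regulator of smooth muscle genes, binds the CArG box. Both runs are the 250 bases before the gene start in RefSeq (GRCm38.p6), in the direction of transcription, with capitals for a CArG box (CC, then 6 letters A or T, then GG) matched exactly or with 1 letter off.
Acta2, chr19:34255374-34255623, minus strand: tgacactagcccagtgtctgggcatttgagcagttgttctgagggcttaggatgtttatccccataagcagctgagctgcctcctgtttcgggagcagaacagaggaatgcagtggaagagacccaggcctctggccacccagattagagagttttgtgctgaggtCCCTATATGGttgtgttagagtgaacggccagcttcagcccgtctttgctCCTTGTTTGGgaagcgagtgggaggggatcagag
Myl9, chr2:156775214-156775463, plus strand: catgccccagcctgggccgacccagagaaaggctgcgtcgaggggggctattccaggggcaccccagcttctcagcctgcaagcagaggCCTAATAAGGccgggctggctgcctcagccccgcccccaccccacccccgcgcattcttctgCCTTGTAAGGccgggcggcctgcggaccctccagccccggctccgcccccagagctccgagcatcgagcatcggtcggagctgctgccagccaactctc

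Acta2 has 2 such boxes, starting 84 and 34 bases before the RefSeq gene start. Myl9 has 2, starting 161 and 99 bases before its RefSeq start, of which 1 is exact. The Acta2 coordinates given earlier come from another source that places the start farther upstream. Most of the printed Acta2 run, with both boxes, lies inside those coordinates. An exact box was found in 2 of 11 contractile genes in the RefSeq table (Myl9 and Acta1) and in 1.62% of all 27025 genes of the table. A box with at most 1 letter off was found in 6 of 11 contractile genes and in 21.1% of all genes. The pattern reads the same on both strands, and a match is a description of letters, not evidence of binding.

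The basal keratins had a median pair correlation of 0.52, and the adhesion genes and transcription factors lower ones. Of 14 basal adhesion and basement membrane genes, 9 had a correlation of 0.3 or more with Acta2 and 0 at -0.3 or less, and the median pair within the list stood at 0.19. Sparc, a collagen-binding matrix protein, was the steadiest of them, from 80.4 to 11494 CPM with a median of 2709 CPM and an SD of 1.21 on the log2(CPM + 10) scale. Col17a1, the hemidesmosomal collagen, ranged from 0 to 2832 CPM (SD 2.36). The 6 basal transcription factors had a median pair correlation of 0.05, and 0 of 6 reached 0.3 with Acta2. Trp63, which maintains basal identity, was at 20 reads in 10 of 85 cells and at 0 in 20, and Snai2 was at 20 reads in 11. At such low levels weak correlations carry little information.

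Of the 10 closest partners of Krt14, only Tagln (0.50) was also among the 10 of Acta2. Krt17, a keratin of basal and injured epithelium, stood closest (0.77), followed by Icam1, an adhesion molecule induced by inflammatory signals (0.56), Sfn (0.54), Gadd45b (0.52), Krt5 (0.51), Myc (0.50) and Nr4a1 (0.50). Over all measured genes 2.02% had a correlation with Krt14 of 0.3 or more and 0.685% of -0.3 or less. The lists give 2 of 2 other basal keratins, 7 of 13 contractile genes and 4 of 14 immediate early genes at 0.3 or more, and 0 of each at -0.3 or less. Among the 10 lowest partners were Cox7a2 (-0.43), a cytochrome c oxidase subunit, Aqp5, a water channel (-0.41), Atp5e, an ATP synthase subunit (-0.41), and Spp1, osteopontin (-0.39). Krt17 itself ranged from 16.3 to 13743 CPM with a median of 966 CPM.

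For 4 pairs of basal keratins and Acta2 the ablated gates are set beside hybrid cells. The correlation of Krt5 with Acta2 was 0.53 in hybrid, 0.08 in ablated basal and 0.11 in ablated luminal cells, and that of Krt14 with Acta2 was 0.40, -0.04 and 0.05. That of Krt14 with Krt17 was 0.77, 0.49 and 0.58. For Krt5 with Krt14 the order differed, with 0.51 in hybrid, 0.20 in ablated basal and 0.66 in ablated luminal cells. These gates differ in range and depth, and the differences were not tested.

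Krt15 ran with the basal keratins and a part of the contractile genes, but not with the basal lists as a whole. Its closest genes were Lgals1, galectin 1 (0.61), Krt17 (0.55), Plekhb1 (0.48), Mme, a surface peptidase of myoepithelial cells (0.46), Krt5 (0.45), Vim, vimentin (0.44), and Lgr5, a receptor of the Wnt pathway (0.44). Over all measured genes 0.737% reached 0.3 with Krt15 and 0.537% reached -0.3. The 3 basal keratins all reached 0.3, as did 5 of 13 contractile genes, 0 of 14 adhesion genes and 0 of 29 luminal genes. With Krt17, Krt15 had a correlation of 0.55 in hybrid, 0.10 in ablated basal and -0.21 in ablated luminal cells. Of the wound keratins, Krt16 was at 20 reads in 4 of 85 cells, Krt6a in 0, and Krt6b had reads in 1 cell.

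Luminal keratins and claudins formed the second block. Krt18 had its highest correlation with Krt8, its partner (0.79), then with Krt19 (0.70), Cldn3 (0.61), Cd82 (0.59), Cldn4 (0.57), Prlr, the prolactin receptor (0.57), and Krt7 (0.56). Krt19 had Krt18 (0.70), Krt8 (0.66), Cldn3 (0.64), Cldn4 (0.62), Bst2 (0.61), Cldn7 (0.60) and Clu, clusterin (0.57). A correlation of 0.3 or more was reached by 5.54% of measured genes for Krt18 and 6.81% for Krt19, and one of -0.3 or less by 0.832% and 0.695%. Of the 14 luminal junction and surface genes, 9 reached 0.3 with Krt19 and 7 with Krt18, with 0 at -0.3 or less in both. These backgrounds are larger than for the basal markers, and Krt18 and Krt19 had correlations of 0.41 and 0.48 with the number of genes in a cell, against 0.10 for Acta2 and 0.07 for Krt14. Given the number of genes, Krt18 with Krt8 was 0.74 and Krt19 with Krt18 was 0.63. Without that adjustment, Krt18 with Krt8 was 0.82 in ablated luminal and 0.16 in ablated basal cells.

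Matrix, cytoskeletal and other genes of the basal side had the lowest correlations with the luminal keratins. With Krt18 the lowest values were those of Sparc (-0.54), Lgals1 (-0.53), Tpm2 (-0.52), Krt5 (-0.51), Igfbp7 (-0.51) and Flna, filamin A (-0.47). With Krt19 they were those of Palld, palladin (-0.53), Sparc (-0.52), Vim (-0.50) and Krt5 (-0.47). The marker pairs themselves were weakly opposed, at -0.29 for Acta2 with Krt19 and -0.30 for Krt14 with Krt18. In ablated luminal cells the same pairs stood at -0.11 and -0.43, and in ablated basal cells at -0.08 and 0.13. For Krt14 with Krt18 the opposition was thus not particular to hybrid cells. Over the 1044 pairs of a basal with a luminal gene the median was -0.10, and over the 630 pairs within the basal lists and the 406 pairs within the luminal lists it was 0.19 and 0.16.

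**Figure D3:**
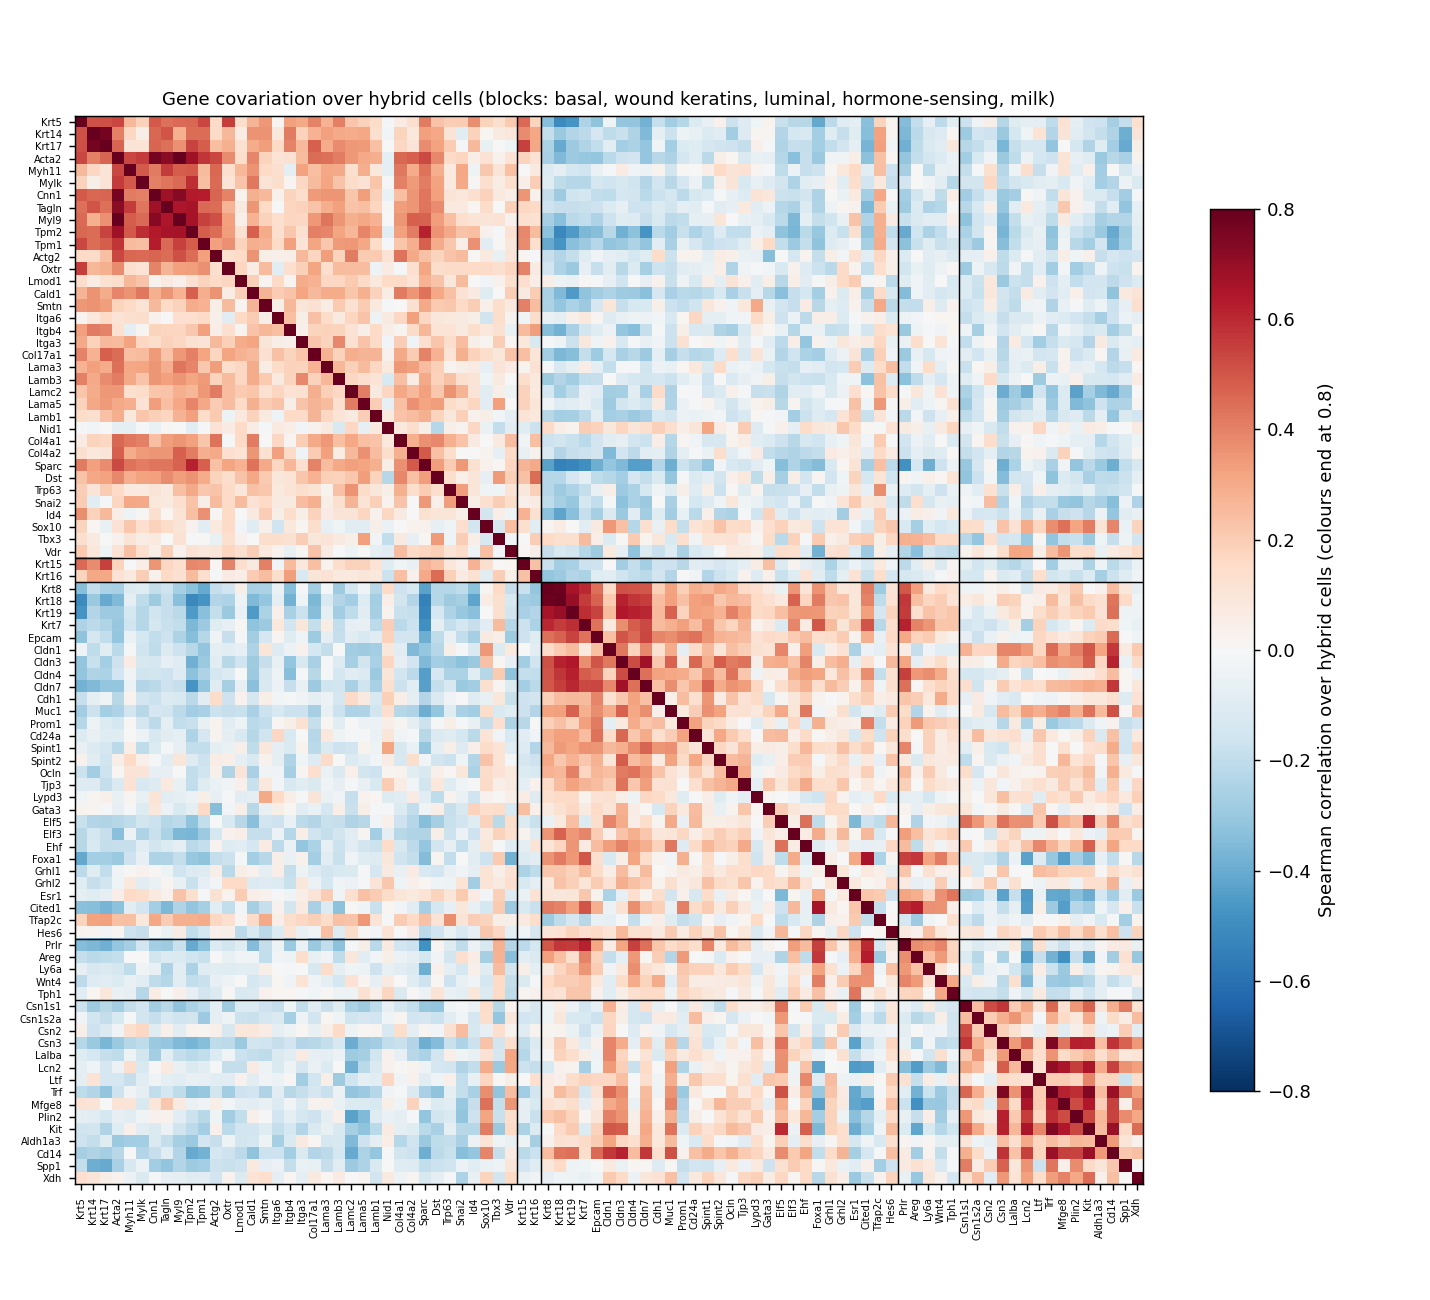
Spearman correlation over 85 hybrid cells for each pair of measured genes, in rows and columns, with red above 0 and blue below. Lines divide basal genes, wound keratins, luminal genes, hormone-sensing genes and milk genes, and red squares stand out among the basal keratins (median pair 0.52), the contractile genes (0.36), the luminal keratins with claudins, the hormone-sensing genes (0.31) and the milk genes (0.26).

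Within the luminal lists, levels ranged from steady to strongly split. Epcam, a sort antigen, was found at 14.9 to 6349 CPM with a median of 1798 CPM (SD 1.51), and Spint2, a protease inhibitor, at 110 to 2408 CPM (SD 0.81). Cldn4 ranged from 3.31 to 16186 CPM with a median of 316 CPM (SD 2.92), and Krt7 from 0 to 3102 CPM with a median of 25.2 CPM (SD 2.68). The luminal transcription factors were sparse, and their median pair correlation was 0.04. The highest pair was Foxa1 with Cited1 (0.66), both of hormone-sensing cells. Elf5, of alveolar cells, had a correlation of 0.60 with Kit, a receptor of luminal progenitors. Foxa1 was at 20 reads in 7 hybrid cells and Elf5 in 6, so these values rest on few cells.

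The genes that varied most in excess of the trend of spread with level included milk genes, keratins and Acta2. Spread is the SD of log2(CPM + 10) over cells, and its excess is the distance to that trend over 9496 genes at 10 CPM or more. The first 5 were Csn3, kappa casein (excess 1.71), Csn1s1, alpha S1 casein (1.64), Wfdc18, an antimicrobial protein (1.48), Spp1 (1.44) and Chil1 (1.43). Krt19 (1.26), Cd14 (1.23), Clu (1.21), Krt17 (1.18), Cldn4 (1.17), Acta2 (1.07) and Krt15 (1.06) came next, and Krt18 (0.99) and Krt14 (0.87) were also among the first 25.

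Milk genes were high in a part of the hybrid cells. Csn3 ranged from 2.52 to 78917 CPM with a median of 114 CPM, and 38 of 85 cells had it at 20 reads or more. Csn1s1 ranged from 1.86 to 53799 CPM with a median of 23.0 CPM and was at 20 reads in 27 cells. The mean negative well had 114 reads of Csn3 and 66.8 of Csn1s1, so the median hybrid cell lies near the level of wells without a cell. Csn2, beta casein, was decided by 1 cell with 63.9% of its reads, and its summed level was 1341 CPM with and 488 CPM without that cell. Over the list of 18 genes the total per cell ran from 445 to 184232 CPM with a median of 9610 CPM.

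**Figure D4:**
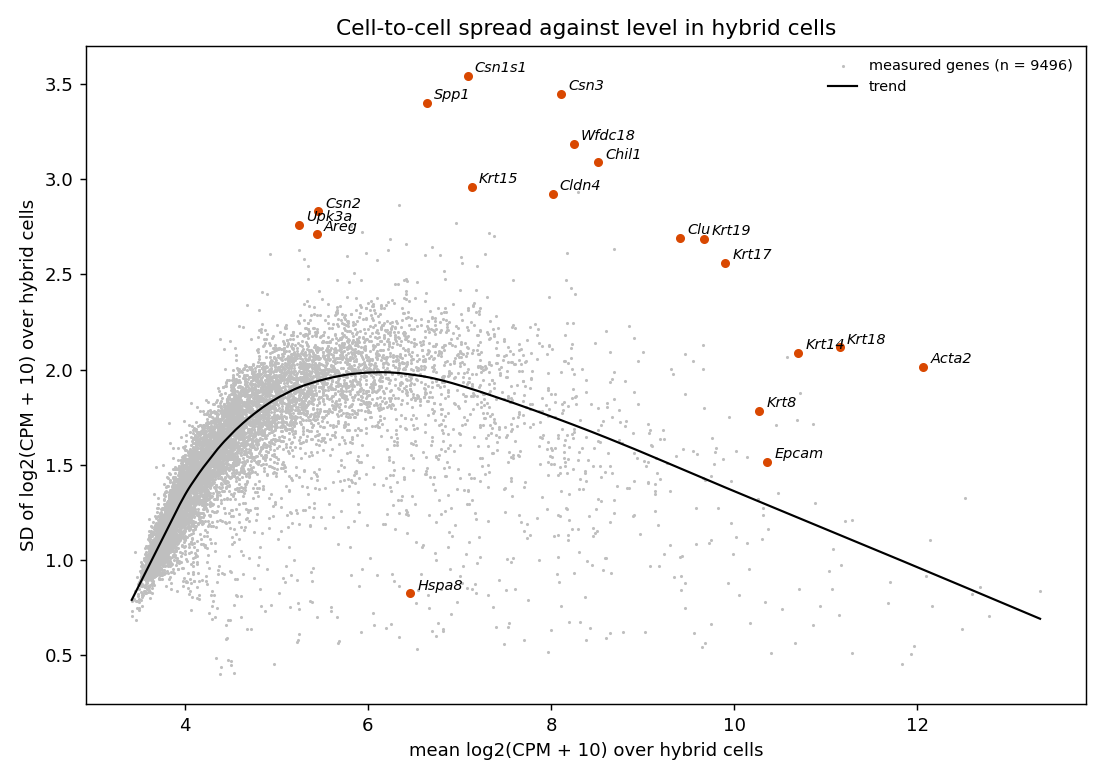
SD of log2(CPM + 10) over 85 hybrid cells (vertical) against the mean log2(CPM + 10) (horizontal) for 9496 measured genes in grey, with the trend as a black line and 19 genes labelled. Csn3, Csn1s1, Spp1 and Wfdc18 lie farthest above the trend, and the keratins and Acta2 lie above it at high levels.

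The larger spread of hybrid cells on the lineage axis was not shared by most lineage genes taken singly. In 28.1% of measured genes the SD was higher in hybrid than in both ablated basal and ablated luminal cells, and with median-of-ratios scaling in 14.1%. Of 36 basal genes 1 was of this kind, and of 29 luminal genes 7, among them Krt19 (2.69 against 0.89 in ablated basal and 2.46 in ablated luminal cells) and Cldn4 (2.92 against 1.11 and 2.41). Of the 16 measured milk genes 11 were of this kind, Csn1s1 with 3.54 against 1.23 and 1.99. Acta2 (2.02) stood between ablated basal (1.61) and ablated luminal cells (2.12), and Krt14 (2.09) was below both (2.21 and 3.47).

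Hormone-sensing genes were also high in a part of the gate. Prlr ranged from 0 to 6813 CPM with a median of 17.9 CPM and was at 20 reads in 24 of 85 cells. Areg, amphiregulin, an EGFR ligand of hormone-sensing cells, ranged from 0 to 5319 CPM with a median of 6.43 CPM and was at 20 reads in 18. Cited1, a transcriptional co-regulator of those cells, ranged from 0 to 3275 CPM with a median of 4.49 CPM and was at 20 reads in 17. Their levels ran together, with correlations of 0.63 for Areg with Cited1, 0.60 for Prlr with Cited1 and 0.37 for Prlr with Areg.

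How often milk and hormone-sensing genes were high in the same hybrid cell differed by gene pair. Csn1s1 and Cited1 were both at 20 reads in 0 of 85 cells, a count that leaves room for up to 3 cells, with Csn1s1 alone in 27, Cited1 alone in 17 and neither in 41. Csn3 and Areg were both found in 2 cells, with Areg alone in 16, and Csn3 and Prlr in 6, with Prlr alone in 18. These pairs were chosen after the values were seen. Wfdc18 and Prlr were both found in 6. Rank correlations over all 85 cells were weak, at -0.0045 for Csn1s1 with Cited1, -0.25 for Csn3 with Areg, -0.05 for Csn3 with Prlr and -0.15 for Wfdc18 with Prlr. The list totals had a correlation of -0.48 over 85 cells, of -0.75 over the 30 cells with a position above 0 and of -0.32 over the 55 others, and of -0.54 over 76 ablated luminal cells.

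The hormone-sensing total split hybrid cells with few between. It was at 1000 CPM or more, a value also set after seeing the data, in 19 of 85 cells, whose totals ran from 1986 to 13486 CPM, and 1 cell lay within 0.5 log2 units of that value. Milk totals were 445 to 12135 CPM (median 1744) in these 19 cells and 1246 to 184232 CPM (median 13812) in the 66 others. Basal genes were present in the 19 cells as well, with medians of 3296 CPM for Acta2 and 1061 CPM for Krt14, and 18 of the 19 had both Acta2 and Krt19 at 20 reads. Of the 66 others 43 had both. The 19 cells also held more genes after thinning, 5370 against a median of 4406.5, and their positions ran from -1.13 to 2.16 (median 0.83) against -4.12 to 1.80 (median -0.56). In ablated luminal cells, by contrast, the 40 cells at 1000 CPM or more of hormone-sensing genes had a median of 15.2 CPM of Acta2.

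**Figure D5:**
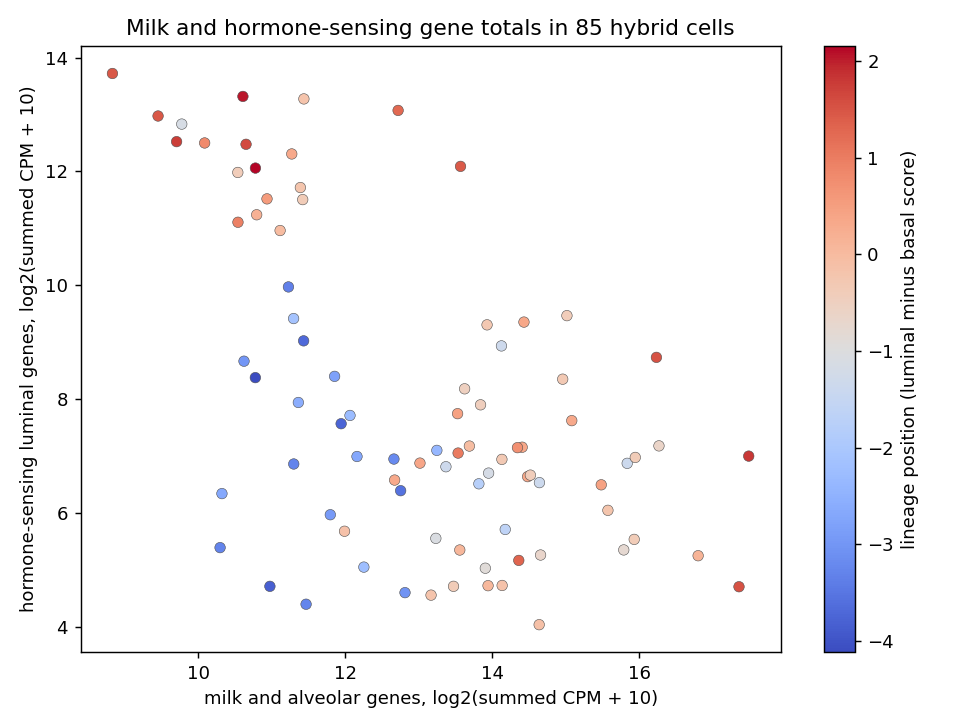
Summed CPM of milk and alveolar genes (horizontal) and of hormone-sensing genes (vertical), both as log2(summed CPM + 10), in 85 hybrid cells, with 1 point per cell and colour for lineage position. The 19 cells with high hormone-sensing totals have milk totals of at most 12135 CPM, and the most basal cells, in dark blue, have hormone-sensing totals under 1000 CPM.

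Principal components over the 500 genes of largest excess spread gave no single dominant axis. The first held 9.0% of the variance and followed the number of genes in a cell (Spearman 0.77), reads (0.55), lineage position (0.64) and most of all the luminal score (0.84), with Cited1, Krt7, Upk3a, Prlr and Areg at the high end and Wfdc18, Slpi and Lcn2 at the low end. Depth and lineage therefore could not be separated on it. The second held 7.63% and followed the milk list (-0.83), with Cd14, Csn3, Wfdc18, Trf and Plet1 at its low end and Wfdc2, Ptn, Lgals1 and Vim at its high end. The third held 5.82%, with Krt17, Icam1, Krt5, Acta2 and Krt14 at the high end and Prlr, Csn3, Aqp5 and Spp1 at the low end, and had correlations of 0.65 with the basal score and 0.61 with reads.

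Cells with several mitotic genes were found on both sides of lineage position 0. Of 14 measured G2/M genes, 5 or more were detected at 5 reads in 11 of 85 hybrid cells (12.9%, 6.64 to 22), in 6 of 76 ablated luminal and in 0 of 71 ablated basal cells. The 11 cells had positions from -2.28 to 2.05, and all 85 hybrid cells from -4.12 to 2.16. Whether the share of such cells differs along the axis was not tested. Cdc20, which activates the anaphase complex, was at 20 reads in 10 hybrid cells, and Mki67, a proliferation antigen, in 5. The G2/M list had a correlation of 0.35 with the number of genes in a cell.

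Several signalling and stress lists had weak correlations with lineage position. The immediate early genes, which respond within minutes to stimulation and to cell dissociation, were present in nearly every hybrid cell, and 84 of 85 cells had at least 5 of 14. Their total ran from 1482 to 30276 CPM with a median of 10063 CPM, and the median pair correlation within the list was 0.29. Atf3 ranged from 7.2 to 8774 CPM and Dusp1 from 3.75 to 4722 CPM. The list score had correlations of -0.002 with position and 0.22 with the number of genes. The TNF and NF-kB list had one of 0.06 with position and 0.56 with the number of genes, the p53 list 0.01 and 0.58, the Notch list -0.09 and 0.30 and the interferon list 0.24 and 0.43. Position is a difference of scores, so links to both sides can cancel in it. The TNF and NF-kB list had correlations of 0.33 with the basal keratins and 0.31 with the luminal lists together. Given the number of genes these were 0.33 and -0.07. For the interferon list with the luminal lists the values were 0.43 and, given genes, 0.22. Icam1 was among the widest of the NF-kB genes, from 1.49 to 3236 CPM with a median of 245 CPM.

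As list scores, Wnt, YAP and mesenchymal genes lay on the basal side of lineage position. The Wnt list had a correlation of -0.45 with position, YAP and TAZ targets one of -0.36 and mesenchymal genes one of -0.57. Few single members reached 0.3 with a basal marker. With Acta2, 3 of 24 measured Wnt genes, 0 of 9 YAP and TAZ targets and 0 of 6 mesenchymal genes reached 0.3. With Krt14 it was 0 of 24, 0 of 9 and 2 of 6. Over all measured genes 2.11% did with Acta2 and 2.02% with Krt14. Lgr5, measured at 20 reads in 13 of 85 cells, ranged from 0 to 4480 CPM, and Lgr6 was at 20 reads in 22. Ccn1, a YAP target, ranged from 2.13 to 5701 CPM (median 504 CPM), and Vim from 0 to 2014 CPM (median 57.2 CPM). The EGFR list, which includes Areg and Hbegf, stood at 0.22, the progenitor-associated list at 0.09, G1/S genes at 0.001 and heat-shock genes at -0.04. Cd44, a surface receptor of the progenitor list, ranged from 0 to 2836 CPM.

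Markers of other cell types were mostly low in hybrid cells. Endothelial markers summed to at most 113 CPM in a cell, with 2 of 6 (Cdh5 and Emcn) at 0. Pericyte markers summed to at most 431 CPM, with 1 of 6 (Abcc9) at 0. Adipocyte markers summed to at most 358 CPM, with 3 of 5 (Adipoq, Plin1 and Cidec) at 0. Immune, skin keratinocyte and Schwann markers were each over 1000 CPM in 2 cells. Only 1 of 8 immune (Fcer1g), 2 of 6 skin (Krtdap and Krt77) and 1 of 5 Schwann markers (Cdh19) were at 0. Schwann markers had a median of 125 CPM per cell. Their summed level, 214 CPM, was the highest of the 5 gates (95.4 to 176 CPM in the others), and 54 of 85 cells held a member at 5 reads. The part of cells with such markers in the results was not tested. Fibroblast markers were over 1000 CPM in 14 cells against 32 of 71 ablated basal cells, mostly from Dcn, decorin (0 to 2636 CPM), with Lum at 0 and Col3a1 at 0 in 84 of 85 cells. In 1 well the hemoglobin genes held 152684 CPM, and the next well had 309 CPM. Without that well the median position was -0.34 and the correlation of the scores -0.41, while Acta2 with Myl9 was 0.79 and the share with Acta2 and Krt19 at 5 reads was 84.5% in place of 83.5%.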

How the data were processed

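The authors deposited read counts for each gene in each well. The values are whole numbers with unequal totals, as unnormalized counts are. Tools listed per the submitters' processing notes, with no roles, are HTSeq 0.6.0, STAR 2.5.2b, cutadapt 1.13 and Seurat, on build GRCm38. No source used here names the annotation version. Of 49585 gene identifiers 49326 matched a symbol, and coordinates are from GENCODE M21. The 92 spike-in rows held 11 reads and were left out.

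From the counts, CPM over all gene reads, log2(CPM + 10), SDs, Spearman correlations and principal components were computed (Python 3.11.15, numpy 2.4.6, scipy 1.17.1, statsmodels 0.14.6 for the lowess trend with a fraction of 0.3), and cells were thinned at random to 100000 reads for shares of cells. Intervals are at 95% and cover counting error only. Counts do not use molecular identifiers, so reads are not independent molecules. Steps were tested on simulated counts. The members and the 33 gene lists were chosen with earlier results of these data known.

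Named genes were the 5 markers, all lineage list members, up to 5 members of each other list with the largest SD, the 25 with the largest excess spread, the 10 highest and 10 lowest partners of each marker and the 10 at each end of components 1 and 2. The last 3 kinds left out ribosomal, mitochondrial and predicted genes and needed detection in 10% of cells. A gene named outside this rule was chosen after its values were seen, such as those of component 3, the cell type markers listed at 0 and the pairs in the milk comparison.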

Additional observations from a re-analysis of the deposited data

How the results depend on the processing

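Alternatives changed the cell filter, scaling, added CPM, thinning, gene choice and threshold, 1 at a time. The kept hybrid cells numbered 61 to 86, the median position stayed between -0.62 and -0.082 and lineage genes with the highest SD in hybrid cells between 6 and 12. Median-of-ratios size factors moved the correlation of the basal and luminal scores from -0.43 to -0.64 and the share of genes with the highest SD in hybrid cells to 14.1%. With 1 CPM added in place of 10 the SD of position was 2.09. Scores from genes 4-fold apart in WT cells gave a median position of -0.082, an SD of 0.61 and a correlation of -0.089. The correlation of the main scores given the genes per cell was -0.67. With 200 genes component 1 held 13.7% of the variance. Acta2 with Krt19 was found in 97.6% of cells at 1 read, 71.8% at 20 reads and 100% at 5 reads without thinning, and Krt14 with Krt18 in 100%, 78.8% and 100%. The cause of these shifts was not tested, beyond what each threshold or list does by construction. Among values of single genes and pairs, the many-cell library gave 43.2 CPM for Krt15 in place of 727 and 992 CPM for Krt14 in place of 3714, and the Pearson value of Prlr with Cited1 was 0.79 in place of a Spearman value of 0.60. Of the 25 genes of largest excess spread, 21 to 23 remained under other level minimums. Depth limits what can be said of transcription factors, most of which were under 20 reads in most cells. No paired analysis was possible because the labels name no animal and no replicate number.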

Other observations

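Transcripts of the surface proteins stained for the sort were uneven among hybrid cells. Itgb1, which encodes CD29, ranged from 0.95 to 1197 CPM with a median of 218 CPM, and Cd24a, which encodes CD24, stained but not named among the sort criteria, from 2.88 to 2795 CPM with a median of 476 CPM. Pdgfra, the antigen used to remove fibroblasts, was at 20 reads in 2 of 85 cells and at 0 in 66, and Ptprc was at 0 in 84. Krt8, whose promoter drives rtTA in these animals, was at 20 reads in 77 of 85 cells (6.68 to 8866 CPM, median 1488), and Krt5, whose promoter drives CreER, was at 20 reads in 43 (0 to 3279 CPM, median 178).

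Calca, calcitonin, was at 20 reads in 14 of 85 hybrid cells (0 to 6609 CPM, SD 2.61), with an SD of 0.12 in ablated basal and 1.35 in ablated luminal cells. Upk3a, a uroplakin, was at 20 reads in 14 hybrid cells (0 to 13802 CPM), and both genes lay at the high end of the first component with Cited1 and Prlr. Slpi, a secreted protease inhibitor, ranged from 1.00 to 37902 CPM in the single cells, and 1 cell held 28% of its reads.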
